A study of Mus musculus with 8 samples.

Results

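The gene set described here held the mast cell proteases, the chains of the high-affinity IgE receptor and the mediator genes of mast cells. It was chosen by symbol, so its members were the rows whose symbol was Cma1, Mcpt4, Cpa3, Tpsb2, Tpsab1, Ms4a2, Fcer1a, Hdc, Hpgds or Slc18a2. All 10 symbols had a row among the 31053 genes counted in each library. The list was written with earlier results of these libraries known, so the values below are a description of these genes and support nothing beyond them.

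The libraries came from eyecups of mice at postnatal day 11 (P11) on the strain written as C57/Bl6 in the labels. The neural retina, lens, cornea and optic nerve had been taken off, which leaves the retinal pigment epithelium (RPE) with choroid and sclera. There were 4 libraries of wild type littermates (Bbs8+/+) and 4 of mice with a constitutive knockout of Bbs8 (Bbs8-/-), a gene annotated as Ttc8 whose product belongs to the BBSome, a complex of cilia. Libraries were of the QuantSeq 3′ type, with reads taken from the ends of polyadenylated transcripts, so that a level in CPM (counts scaled to a common library total of 1e6) follows the number of transcript ends and is not set by gene length.

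Mast cells are resident immune cells that lie along vessels and nerves in connective tissue, the choroid among them. They store tryptases, chymases, carboxypeptidase A3 and histamine in granules and release them when antigen cross-links IgE on the high-affinity IgE receptor. They grow under stem cell factor, the ligand of the receptor Kit, and the transcription factors Gata2 and Mitf act in their development.

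Total gene counts ranged from 2159295 to 2884983 in Bbs8+/+ and from 1636725 to 2179761 in Bbs8-/- libraries, so 3 counts, taken as the smallest level the depth could show, stood at 1.04 to 1.83 CPM. Ttc8, the targeted gene, was at 14.7, 19.7, 18.2 and 21.7 CPM in the Bbs8+/+ replicates and at 9.72, 3.66, 2.30 and 4.21 CPM in the Bbs8-/- replicates, each below every control (log2 fold change -1.95, SE 0.32). The labels do not say whether its counted 3′ end lies in the deleted part. Of 13813 genes tested with edgeR's quasi-likelihood test, 152 were higher and 157 lower in Bbs8-/- at FDR 0.05, and the median log2 fold change of all tested genes was -0.0041.

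Within the gene set, the transcripts of the tryptases Tpsb2 and Tpsab1 were higher in Bbs8-/- eyecups and those of the chymases, carboxypeptidase A3 and the mediator genes did not pass the test. Tpsb2 rose 1.84-fold and Tpsab1 3.18-fold between the genotype means. Of the 10 members, 8 passed the filter on low counts, and 2 of these were higher and 0 lower at FDR 0.05, where 1.10% of all tested genes were higher and 1.14% lower (2.24% in either direction). The levels of 2 members did not overlap between genotypes, both higher in Bbs8-/-, and among all tested genes 3.62% showed such a pattern in that direction, 3.76% in the opposite one and 7.38% in either. The 8 tested members had a median log2 fold change of 0.43, with 7 above and 1 below 0. Since the members were chosen with results known, these shares are given beside each other with no test.

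**Figure D1:**
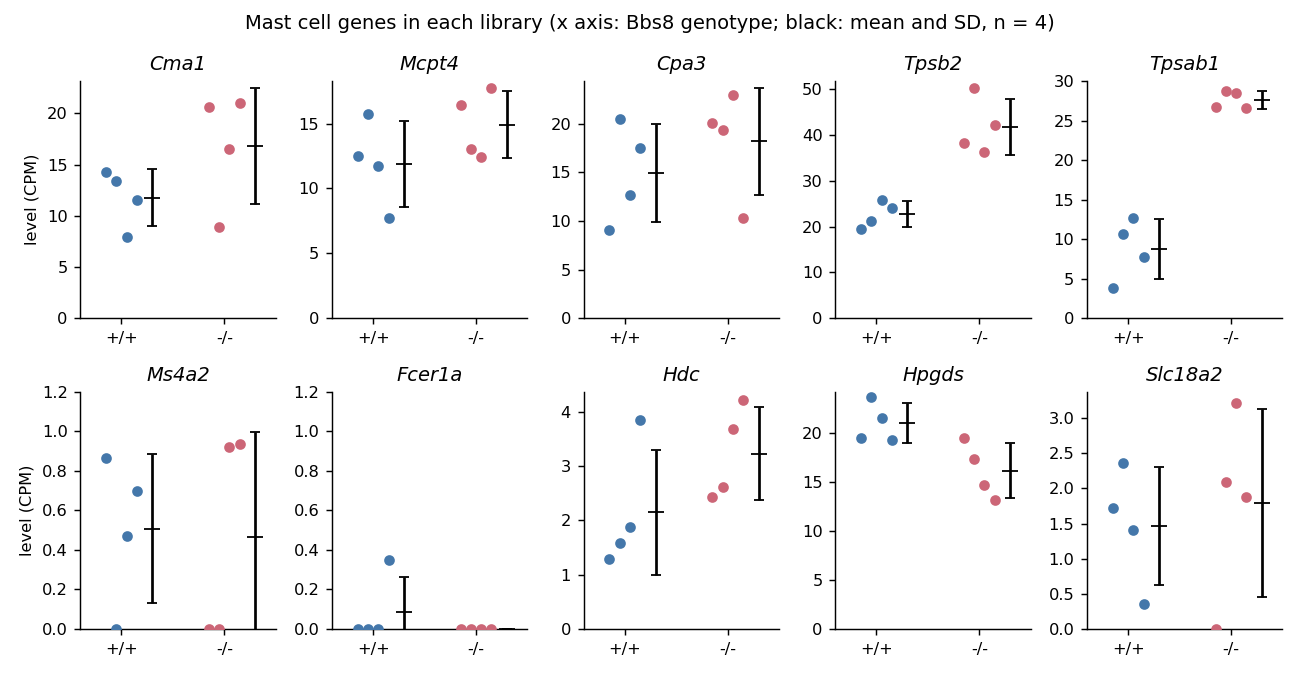
Level in CPM of each of the 10 mast cell genes in each library, by genotype, with points for libraries, in order of replicate, and black bars for the mean and SD of 4 libraries (cut at 0). The Bbs8-/- points of Tpsb2 (36.3 to 50.2 CPM) and Tpsab1 (26.7 to 28.8 CPM) lie above all Bbs8+/+ points, while the other 8 panels overlap.

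Tryptases are trypsin-like serine proteases that are packed in mast cell granules on heparin. Tpsb2 encodes the tryptase known as mMCP-6 and Tpsab1 the one known as mMCP-7. Both genes have 5 exons in the transcripts used here and lie on chromosome 17 (GRCm38), with Tpsab1 (ENSMUSG00000024173) at chr17:25343245-25345562 on the minus strand and Tpsb2 (ENSMUSG00000033825) at chr17:25366305-25369098 on the plus strand, 20742 bases apart. As the pair are close copies, reads could be confused between them, so the coding part of their last exons is shown. It opens with the codons around the catalytic serine and runs to the stop codon, and the 23 bases that differ are in capitals. Tpsb2 is read from chr17:25367682-25367846 on the plus strand and Tpsab1 from chr17:25343419-25343583 on the minus strand of GRCm38.
Tpsb2: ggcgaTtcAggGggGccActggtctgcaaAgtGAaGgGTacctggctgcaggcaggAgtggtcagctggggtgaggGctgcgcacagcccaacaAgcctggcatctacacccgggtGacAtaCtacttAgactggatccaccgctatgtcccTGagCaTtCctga
Tpsab1: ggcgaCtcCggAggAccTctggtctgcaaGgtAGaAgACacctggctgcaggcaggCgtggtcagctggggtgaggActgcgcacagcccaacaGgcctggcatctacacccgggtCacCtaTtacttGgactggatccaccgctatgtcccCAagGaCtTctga

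The 165 bases of each gene were 86.06% identical, and the longest run shared by the pair was 23 bases here and 39 bases over the whole transcripts. No run of 50 bases in the transcripts of either tryptase occurred in the annotated transcripts of any other gene. The 3′ reads of QuantSeq start near the transcript end. The transcripts used here go on past the stop codon for 248 bases in Tpsb2 and 174 bases in Tpsab1. Tpsb2 has 4 annotated transcripts, and its annotated gene end at chr17:25369098 lies further 3′ than the end of the transcript used. In RefSeq the C57BL/6J copy of Tpsab1 is entered as a transcribed pseudogene, whereas the GENCODE M21 annotation enters it as protein coding. As background, C57BL/6 mice are known to lack the mMCP-7 protein, so a Tpsab1 value here is a transcript level only.

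The level of Tpsb2 was 19.4, 21.3, 25.7 and 24.1 CPM in the Bbs8+/+ replicates 1 to 4 and 38.3, 50.2, 36.3 and 42.1 CPM in the Bbs8-/- replicates 1 to 4. Every Bbs8-/- library lay above every control library, and the second knockout replicate was the highest of the 8. Its mean was 22.6 ± 2.83 CPM in controls and 41.7 ± 6.15 CPM in knockouts (SD, n = 4 each), and the log2 fold change was 0.88 (SE 0.18, 95% interval 0.53 to 1.23, edgeR FDR = 0.000362). These levels rest on 45 to 69 counts per Bbs8+/+ library and 63 to 96 per Bbs8-/- library.

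Tpsab1 stood at 3.88, 10.6, 12.6 and 7.69 CPM in the Bbs8+/+ replicates and at 26.7, 28.8, 28.5 and 26.7 CPM in the Bbs8-/- replicates. The knockout libraries lay close together on 44 to 62 counts each, and this closeness was not tested against counting error. The lowest knockout library was above the highest control, while the controls spread from 9 counts in replicate 1 to 27 counts in replicates 2 and 3. Controls averaged 8.71 ± 3.80 CPM and knockouts 27.7 ± 1.12 CPM (SD, n = 4 each), and the log2 fold change was 1.67 (SE 0.25, 95% interval 1.18 to 2.16, edgeR FDR = 2.38e-07). Without the lowest control library the log2 fold change of Tpsab1 was 1.44. With each library left out in turn the FDR of Tpsab1 reached at most 2.00e-05 and that of Tpsb2 at most 0.0111.

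The share of Tpsab1 in the counts of both tryptases was 16.7%, 33.3%, 32.9% and 24.2% in the Bbs8+/+ replicates and 41.1%, 36.4%, 44.0% and 38.8% in the Bbs8-/- replicates. The shares did not overlap between genotypes, with means of 26.8 ± 7.95% and 40.1 ± 3.23% (SD, n = 4 each). The exact 95% binomial intervals of single libraries were wide, from 7.92% to 29.3% in the lowest control and from 35.6% to 52.6% in the highest knockout library, and those of the second Bbs8+/+ replicate (23.2% to 44.7%) and the second Bbs8-/- replicate (28.8% to 44.6%) overlapped. The difference in means was between 9.93 and 15.5 percentage points with any one library left out. This share derives from the same contrast as the levels above and was not tested separately.

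**Figure D2:**
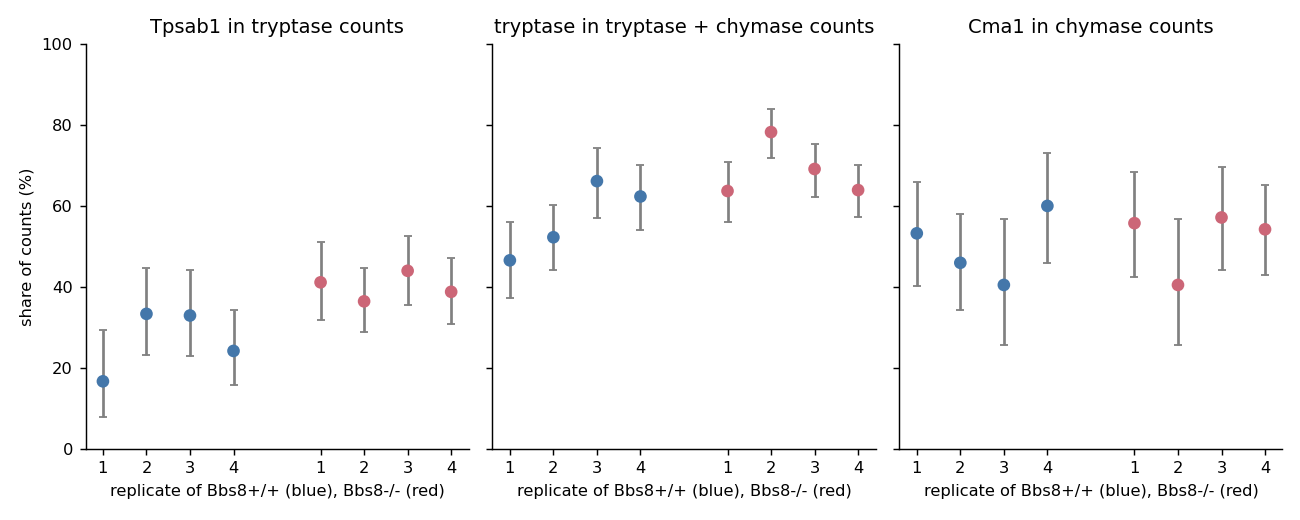
Share of counts in percent for Tpsab1 among tryptase counts, tryptase among tryptase plus chymase counts, and Cma1 among chymase counts, one point per library with its exact 95% binomial interval (counting error only). Only the first panel separates the genotypes, with Bbs8+/+ at 16.7% to 33.3% and Bbs8-/- at 36.4% to 44.0%.

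Chymases are granule serine proteases of chymotrypsin-like specificity that act on angiotensin, matrix proteins and peptides. Cma1, the chymase also called mMCP-5 (chr14:55941451-55944675, minus strand), was at 14.2, 13.4, 7.95 and 11.5 CPM in Bbs8+/+ and 20.7, 8.89, 16.5 and 21.05 CPM in Bbs8-/- replicates. In 3 of the 4 knockout libraries Cma1 was above every control, and the second Bbs8-/- replicate, the highest for Tpsb2, fell within the controls. The log2 fold change of Cma1 was 0.50 (SE 0.27, 95% interval -0.02 to 1.03, edgeR FDR = 0.418).

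Mcpt4, a chymase of connective tissue mast cells (chr14:56059629-56062313, minus strand), was at 12.5, 15.8, 11.7 and 7.69 CPM in Bbs8+/+ and 16.4, 13.1, 12.4 and 17.8 CPM in Bbs8-/- replicates. The genotypes overlapped, with means of 11.9 ± 3.31 and 14.9 ± 2.59 CPM (SD, n = 4 each) and a log2 fold change of 0.33 (SE 0.27, 95% interval -0.21 to 0.86, edgeR FDR = 0.672). Of the 50-base runs in its transcript, 58 of 1059 also occur in Cma2 or Mcpt9, both counted at 0 in all 8 libraries, and 56 of 1041 such runs of Cma1 occur in the gene model Gm48934.

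Carboxypeptidase A3 trims peptides that chymases have cut and lies in the same granules. Its gene Cpa3 (chr3:20215620-20242181, minus strand) was at 9.06, 20.5, 12.6 and 17.5 CPM in Bbs8+/+ and 20.05, 19.3, 23.0 and 10.3 CPM in Bbs8-/- replicates. High and low libraries occurred in both genotypes, and the fourth Bbs8-/- replicate was near the lowest control. The log2 fold change of Cpa3 was 0.26 (SE 0.25, 95% interval -0.23 to 0.76, edgeR FDR = 0.734).

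The upper bounds of these 3 intervals lay at or below a log2 fold change of 1.03, so a change as large as the 1.67 of Tpsab1 was outside the interval for Cma1, Mcpt4 and Cpa3. The 0.88 of Tpsb2 was inside the interval for Cma1 and outside those for Mcpt4 and Cpa3. These intervals compare each gene with 0, and the difference between a tryptase and another member was not tested. As a share of tryptase plus chymase counts, tryptase took 46.6% to 66.1% in Bbs8+/+ and 63.7% to 78.2% in Bbs8-/- libraries, which overlapped. Cma1 took 40.5% to 60.0% of the chymase counts in Bbs8+/+ and 40.5% to 57.1% in Bbs8-/-, so the makeup of the chymase counts covered nearly the same range in both genotypes.

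**Figure D3:**
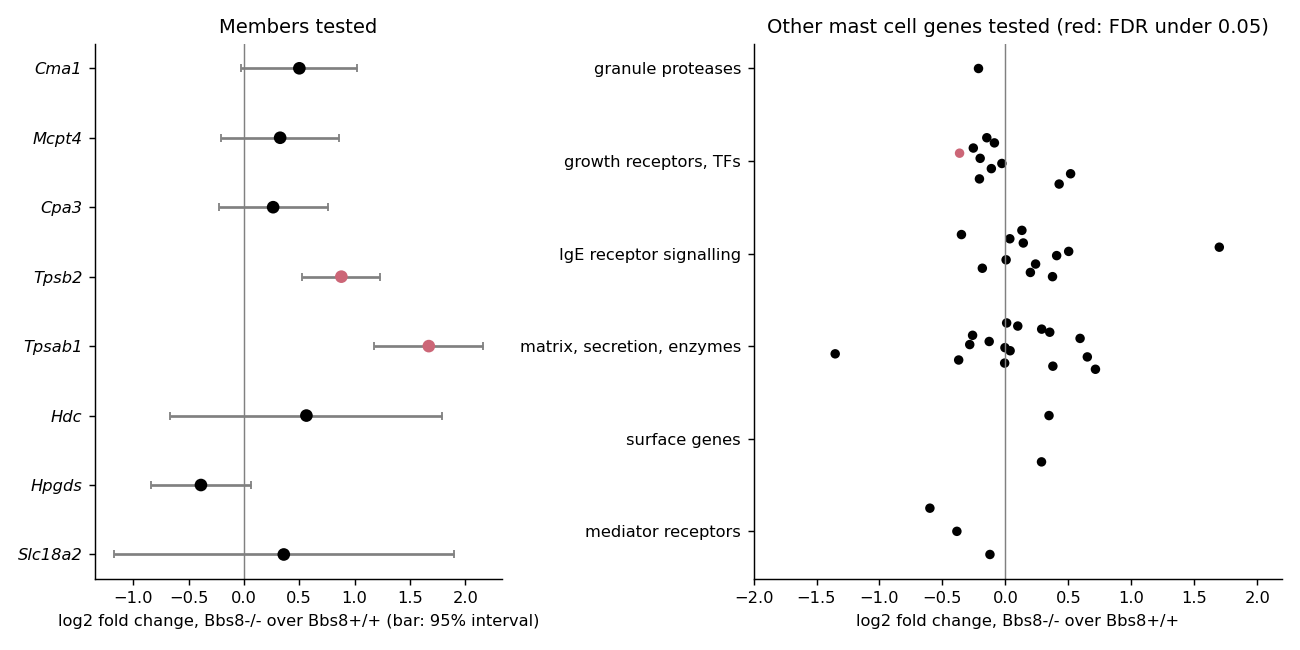
Log2 fold change of Bbs8-/- over Bbs8+/+ for the 8 members tested with 95% intervals (left) and for the 44 other mast cell genes tested by role (right), with FDR under 0.05 in red. Tpsb2 (0.88) and Tpsab1 (1.67) are the red points on the left, and Mitf (-0.36) is the one red point on the right.

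The high-affinity IgE receptor of mast cells is made of a ligand-binding alpha chain (Fcer1a), a signal-amplifying beta chain (Ms4a2) and a gamma chain dimer (Fcer1g). Ms4a2 had 2, 0, 1 and 2 counts in Bbs8+/+ and 0, 0, 2 and 2 counts in Bbs8-/- replicates. Fcer1a had 1 count in the fourth Bbs8+/+ replicate and 0 counts in the other 7 libraries. Both chains were at or under the 3 counts that the depth could show in every library, so no fold is given and a difference was not detectable at this depth. Fcer1g, which other myeloid cells share, averaged 18.8 ± 3.42 CPM in controls and 21.6 ± 4.34 CPM in knockouts (SD, n = 4 each), with a log2 fold change of 0.20 (SE 0.22, edgeR FDR = 0.787).

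Among the mediator genes, Hdc makes histamine from histidine, Slc18a2 is the vesicle transporter that loads monoamines such as histamine into granules, and Hpgds makes prostaglandin D2 and is also known from microglia and macrophages. Hpgds (chr6:65117293-65144908, minus strand) was at 19.4, 23.6, 21.5 and 19.2 CPM in Bbs8+/+ and 19.4, 17.3, 14.7 and 13.1 CPM in Bbs8-/- replicates. It was the one tested member with a log2 fold change below 0, at -0.39 (SE 0.23, 95% interval -0.84 to 0.07, edgeR FDR = 0.495), and 3 of the 4 knockout libraries were below every control.

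Hdc (chr2:126593667-126619299, minus strand) had 3, 4, 4 and 11 counts in Bbs8+/+ and 4, 5, 8 and 9 counts in Bbs8-/- replicates, which overlapped. Its log2 fold change was 0.56 with a 95% interval of -0.66 to 1.79 (edgeR FDR = 0.783). Slc18a2 (chr19:59260896-59296012, plus strand) had 4, 6, 3 and 1 counts in Bbs8+/+ and 0, 4, 7 and 4 counts in Bbs8-/- replicates. Its log2 fold change of 0.36 had a 95% interval of -1.18 to 1.90 (edgeR FDR = 0.907), and it was -0.058 without the third Bbs8-/- replicate. At these counts the intervals of Hdc and Slc18a2 held changes as large as that of Tpsab1 as well as none.

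Summed over the 10 members, the level lay between 82.4 and 109 CPM in the 4 Bbs8+/+ libraries and between 138 and 144 CPM in the 4 Bbs8-/- libraries. The tryptases alone summed to 23.3 to 38.4 CPM in Bbs8+/+ and 64.8 to 79.0 CPM in Bbs8-/-, with no overlap. The 8 members other than the tryptases summed to 59.1, 77.2, 57.5 and 61.2 CPM in Bbs8+/+ and 79.0, 63.3, 74.4 and 69.2 CPM in Bbs8-/-, which overlapped. This split follows the calls given above and is a description. In bulk libraries such as these, a different number of cells of a type and a different amount of RNA per cell cannot be told apart.

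Beyond the 10 members, 70 other genes of mast cell biology were listed by role, and 44 of them passed the filter on low counts. By edgeR's quasi-likelihood test at FDR 0.05, 0 were higher and 1 was lower, and 7 had an unadjusted p under 0.05, where 13.0% of all tested genes did. DESeq2 called 0 higher and 1 lower as well. The median log2 fold change of the 44 was 0.0077, with 23 above and 21 below 0. Of the 70 genes, 21 had no more than 3 counts in any library, 11 of them at 0 in all 8.

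The growth receptors and transcription factors had 10 of 13 genes tested, with 1 lower and 0 higher. Kit, the receptor that marks mast cells and also melanocytes, was at 43.2, 32.7, 27.6 and 33.2 CPM in Bbs8+/+ and 32.8, 34.0, 28.5 and 38.8 CPM in Bbs8-/- replicates. The knockout libraries lay within the range of the controls, with a log2 fold change of -0.03 (SE 0.17, 95% interval -0.37 to 0.31, edgeR FDR = 0.974). Kitl, its ligand, had a log2 fold change of -0.20 (SE 0.09, edgeR FDR = 0.326) and Gata2 one of -0.21 (SE 0.41, edgeR FDR = 0.898). Mitf was lower in knockouts (209 ± 21.2 CPM) than in controls (268 ± 27.8 CPM, SD, n = 4 each), with a log2 fold change of -0.36 (SE 0.08, edgeR FDR = 0.000669). Mitf is also a main regulator of melanocytes and of the RPE.

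The other granule proteases had 1 of 10 genes tested. This was Ctsc, which activates granule serine proteases in many cell types, with a log2 fold change of -0.22 (SE 0.12, edgeR FDR = 0.451). Mcpt1 and Mcpt9, proteases of mucosal or uterine mast cells, and Mcpt8, a protease of basophils, were at 0 counts in all 8 libraries. Tpsg1, the membrane-bound tryptase beside Tpsb2, did not exceed 3 counts in any library, so the tryptase counts were those of Tpsb2 and Tpsab1.

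In IgE receptor signalling 12 of 13 genes were tested and 0 passed in either direction, with 2 under an unadjusted p of 0.05 and none called by DESeq2. The adaptor Gab2 averaged 91.8 ± 7.84 CPM in Bbs8+/+ and 108 ± 2.78 CPM in Bbs8-/-, with no overlap and a log2 fold change of 0.24 (SE 0.10, edgeR FDR = 0.277). The adaptor Lcp2, named after its values were seen, had 0, 0, 6 and 9 counts in Bbs8+/+ and 5, 10, 10 and 15 counts in Bbs8-/- replicates, with a log2 fold change of 1.70 (SE 0.63, 95% interval 0.45 to 2.94, edgeR FDR = 0.166). The phospholipase Plcg1 had a log2 fold change of 0.04 (SE 0.10, edgeR FDR = 0.936). All 16 genes of granule matrix, secretion and mediator enzymes were tested and 0 passed, with 3 under an unadjusted p of 0.05. These 3, named after their values were seen, went in both directions. Stxbp2 had a log2 fold change of 0.35 (SE 0.13, edgeR FDR = 0.163), Rab27b of 0.59 (SE 0.29, edgeR FDR = 0.363) and Maob of -1.35 (SE 0.55, edgeR FDR = 0.230). Cd63, a membrane protein of granules and of lysosome-related organelles in general, had a log2 fold change of -0.01 (SE 0.04, edgeR FDR = 0.976), and Rab27a, a small GTPase of granule transport, one of -0.13 (SE 0.09, edgeR FDR = 0.620).

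Of 9 other mast cell surface genes 2 were tested, Adora3 (log2 fold change 0.29, SE 0.98) and Itga2b (log2 fold change 0.35, SE 0.47), with edgeR FDR = 0.946 and FDR = 0.832. Receptors through which tissue responds to mast cell products had 3 of 9 genes tested and 0 called. The leukotriene receptor Cysltr1 averaged 22.4 ± 3.34 CPM in Bbs8+/+ and 17.02 ± 2.42 CPM in Bbs8-/- (log2 fold change -0.39, SE 0.22, edgeR FDR = 0.480). The angiotensin receptor Agtr1a had a log2 fold change of -0.12 (SE 0.34, edgeR FDR = 0.932), and the histamine receptors Hrh1, Hrh2 and Hrh4 were at 0 counts in all 8 libraries.

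The genes around the tryptases were examined because Tpsb2 and Tpsab1 lie side by side. Within 500 kb on either side there were 53 other genes, of which 36 were tested. Among these 1 was higher and 0 lower at FDR 0.05 in edgeR, where 1.10% of all tested genes were higher and 1.14% lower. Of the 36, 5 had an unadjusted p under 0.05, where 13.0% of all tested genes did. Their log2 fold changes ranged from -0.62 to 0.63 with a median of -0.0004. The gene called was Metrn, which encodes a secreted neurotrophic factor, with a log2 fold change of 0.40 (SE 0.12, edgeR FDR = 0.0461). The nearest tested gene on the Tpsb2 side was the calcium channel gene Cacna1h (log2 fold change 0.21, SE 0.46, edgeR FDR = 0.908). No tested neighbour had a log2 fold change as large as that of Tpsb2 or Tpsab1.

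**Figure D4:**
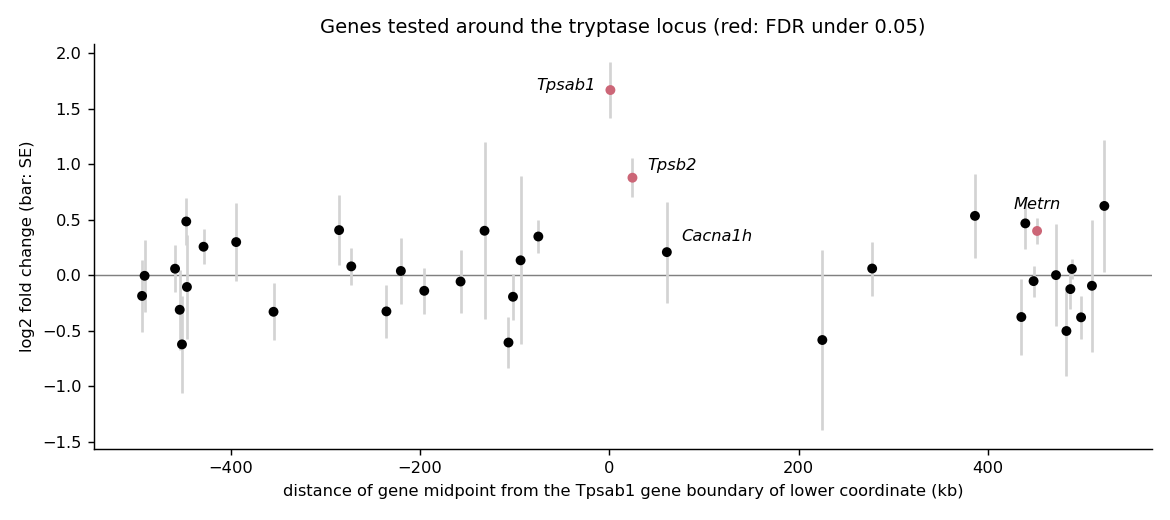
Log2 fold change with SE of the tested genes within 500 kb of the tryptase genes, against the distance of each gene's midpoint from the lower end of Tpsab1 in kb, with FDR under 0.05 in red. Tpsab1 (1.67) and Tpsb2 (0.88) stand above the 36 neighbours, which range from -0.62 to 0.63.

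Other cells of an eyecup could also differ between the genotypes, so 13 marker lists were summed by library and compared with an exact permutation test (two-sided), whose smallest possible p with 4 against 4 is 0.0286 (0.0464 after adjustment over the lists). As these lists were written with earlier results known, the p-values describe these sums and are no independent evidence of a difference. Macrophage and microglia markers summed to 533 to 582 CPM in Bbs8+/+ and 646 to 666 CPM in Bbs8-/- libraries (exact permutation p = 0.0286, adjusted 0.0464), with 2 of 13 higher in edgeR, Csf1r (log2 fold change 0.28, FDR = 0.0104) and Lyz2 (0.54, FDR = 0.0229). Csf1r was the most abundant of them (254 and 308 CPM on average), and Mrc1 had a log2 fold change of -0.15 and was not called. The log2 ratio of this myeloid sum was 0.22, beside a log2 fold change of -0.39 for Hpgds, which macrophages share, and of 0.20 for Fcer1g. Basophil markers summed to 0 to 1.73 CPM in Bbs8+/+ and 0.607 to 2.61 CPM in Bbs8-/- (exact permutation p = 0.114, adjusted 0.149), 0 of 5 were tested, and the defining gene Mcpt8 was at 0 in all 8 libraries. Neutrophil markers (exact permutation p = 0.0857, adjusted 0.124) and lymphocyte markers (p = 0.343, adjusted 0.371) overlapped and stood under 11 CPM in every library.

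Other lists differed as well, each of the following without overlap at the same exact permutation p of 0.0286 (adjusted 0.0464). Markers of fibroblasts of sclera and choroid were lower (3 of 8, Col1a1, Col1a2 and Col3a1), with a log2 ratio of -0.36 for the sum, while 3 of the 8 had log2 fold changes above 0 (Dcn 0.09, Lum 0.12 and Dpt 0.01), none of them called. Melanocyte markers were lower by a log2 ratio of -0.27 (6 of 8, Tyrp1, Dct, Pmel, Mlana, Ednrb and Mitf). Dct made up most of that sum (10378 and 8736 CPM on average), Tyr (log2 fold change 0.02) and Kit (-0.03) were not called, and the RPE also expresses pigment genes of this list. RPE markers, which mark the labelled tissue, were at 17046 to 18080 CPM in Bbs8+/+ and 18481 to 18827 CPM in Bbs8-/-, with 1 of 8 higher (Otx2). Ttr made up most of that sum (10955 and 11676 CPM on average), and Rpe65 (log2 fold change -0.13, edgeR FDR = 0.0842) and Lrat (-0.10) were on the other side of 0. Lens markers rose from 192 to 233 CPM in Bbs8+/+ to 526 to 567 CPM in Bbs8-/-, a log2 ratio of 1.40, with 7 of 11 higher, all crystallin genes (Cryaa, Cryba1, Crybb1, Cryga, Crygb, Crygc and Crygd). Another crystallin gene, Cryab, made up most of the control sum and had a log2 fold change of -0.15, so the ratio of the sum lay below the list's median log2 fold change of 3.00. Monoamine neuron and amacrine cell markers, which bear on Slc18a2, summed to 3.02 to 3.54 CPM in Bbs8+/+ and 4.59 to 7.48 CPM in Bbs8-/-, a log2 ratio of 0.80. Of these 6 genes 1 was tested and 0 were called. That sum was carried by Slc6a2 (2.13 ± 1.18 CPM in controls, 5.29 ± 1.70 CPM in knockouts, edgeR FDR = 0.290), Slc6a4 averaged 0.78 and 0.38 CPM, and Th had at most 1 count.

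Endothelial markers (exact permutation p = 0.457) and skeletal muscle markers (exact permutation p = 0.143, adjusted 0.169) overlapped between genotypes, with 0 of 7 and 0 of 9 called. A list of 4 Y-linked genes (Uty, Kdm5d, Ddx3y, Eif2s3y), which follows the share of male tissue in a library, summed to 59.1 to 65.0 CPM in Bbs8+/+ and 108 to 120 CPM in Bbs8-/-, a log2 ratio of 0.89 with 3 of 4 higher. The part of these tissue and sex differences in the tryptase levels was not tested.

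**Figure D5:**
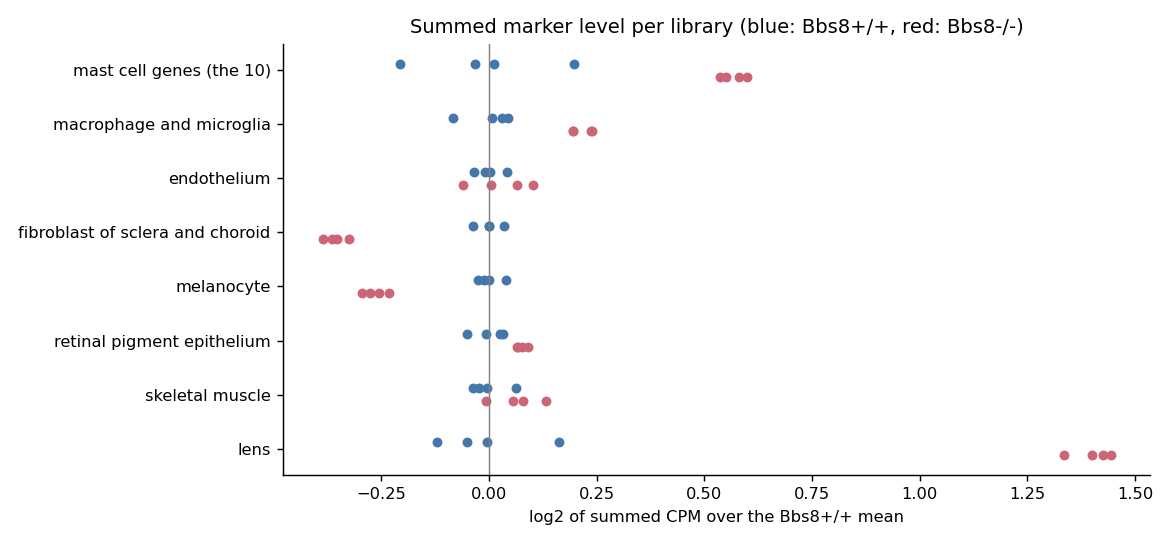
Summed level of the 10 mast cell genes and of 7 marker lists in each library, as log2 of the summed CPM over the Bbs8+/+ mean (blue Bbs8+/+, red Bbs8-/-). The mast cell sum is higher in Bbs8-/- (138 to 144 against 82.4 to 109 CPM), as are macrophage, RPE and lens markers, while fibroblast and melanocyte markers are lower.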

How the data were processed

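RPE eyecups of Bbs8+/+ and Bbs8-/- mice at P11 were sequenced by QuantSeq 3′ mRNA FWD, in 4 libraries per genotype. The authors deposited 1 table per library with the raw counts of reads that aligned to a single place, by gene. To make them the authors trimmed reads with BBDuk, aligned with STAR to mm10 with an Ensembl gene model and counted with htseq-count. The strand setting was not stated and no molecular identifiers were named, so counts of overlapping genes are uncertain, and the binomial intervals of shares and the 3-count floor cover counting error only, while the intervals of log2 fold changes include the spread between libraries. The summary lines that close each table were left out of library totals and tests. Libraries of other ages were not analysed here, and 2 of the 13 marker lists and some neighbouring genes are not reported here.

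Of 31053 gene identifiers 31011 had an entry in GENCODE M21 (GRCm38), which gave symbols, 1-based positions and sequences. RefSeq supplied synonyms and gene types for the members. Genes that reached 1 CPM in 4 or more libraries entered edgeR 4.0.16 (R 4.3.3; TMM, quasi-likelihood F test, two-sided, genotype only, Benjamini-Hochberg FDR 0.05 over all 13813 genes). The study's methods name edgeR's generalized linear models at this FDR and a further filter on multi-mapped reads, which was not applied here. CPM are TMM-normalised. Standard errors are the log2 fold change over the square root of F. The study treats each animal as a replicate. The p-values measure the spread between these libraries, and whether that spread is the spread between animals was not tested. Every library held Y-linked transcripts, at summed levels of 59.1 to 65.0 CPM in Bbs8+/+ and 108 to 120 CPM in Bbs8-/-. How many animals gave each library was not tested. Library totals did not differ past the threshold (exact permutation p = 0.0857). The script was tested on simulated data. Libraries of 1 genotype differed by 1.87 to 3.08 times the chi-square expected from sampling alone, so none was counted as a duplicate. This index cannot tell libraries of separate animals from separate preparations of shared RNA. Pairing by replicate number was checked by correlating deviations from the group means.

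The members and lists were chosen with earlier results of these data known. The text names all members, every other listed gene past FDR 0.05, the most abundant pair of each mast cell list, Kit, Kitl, Gata2 and Fcer1g, the cell type genes past FDR 0.05 where the sum did not overlap, and the 3 genes most like Tpsb2. Genes named as counted at 0 or near 0, Tpsg1, Lcp2, Stxbp2, Rab27b, Maob, Metrn, the cell type genes short of the threshold, the neighbours and the comparison of tryptase sequences were added after values were seen. Alternatives were RLE size factors, library totals, no count filter, DESeq2 1.42.0, a replicate block, thinning to the smallest total (1636725 counts), and leaving out each library.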

Additional observations from a re-analysis of the deposited data

How the results depend on the processing

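Under the 14 alternatives Tpsb2 had log2 fold changes of 0.78 to 0.95 (edgeR or DESeq2 FDR 0.000239 to 0.0111) and Tpsab1 of 1.44 to 1.88 (FDR 2.17e-08 to 2.01e-05), and each stayed past the threshold. The other 6 tested members stayed short of it wherever an FDR was given (DESeq2 gave none for Slc18a2), with the ranges -0.058 to 0.72 for Slc18a2, 0.37 to 0.71 for Cma1, 0.15 to 0.51 for Mcpt4, 0.09 to 0.47 for Cpa3, 0.39 to 1.03 for Hdc and -0.48 to -0.30 for Hpgds. Slc18a2 changed sign to -0.058 without Bbs8-/- replicate 3 (edgeR FDR = 0.990), and the cause was not tested. Over all genes, 114 to 172 were higher and 105 to 172 lower. Mitf was the 1 other mast cell gene called, lower, in each alternative. The log2 ratio of the basophil markers, main value 1.19, lay between 0.77 and 1.87 when single libraries were dropped, and without Bbs8+/+ replicate 1 it moved to 1.87, at sums under 3 CPM.

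The replicate numbers did not pair the libraries, since the deviations of same-numbered libraries had correlations of -0.056 to 0.019 over 6628 genes. With the replicate block 134 genes were higher and 129 lower, Tpsb2 had a log2 fold change of 0.88 (edgeR FDR = 0.000825) and Tpsab1 of 1.69 (edgeR FDR = 4.69e-07). The count filter left out Ms4a2 and Fcer1a. Without it neither passed the threshold (edgeR FDR = 0.992 and 0.742), at no more than 2 counts a library. Hdc and Slc18a2, with at most 11 and 7 counts a library, had wide intervals.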

Other observations

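The 3 genes whose levels over the 8 libraries were most like those of Tpsb2, by the root mean square difference of centred log2(CPM + 1) among 9036 genes, were Rplp1 (0.133), Pgam2 (0.167) and Epb41l4aos (0.172). Rplp1, a ribosomal stalk protein gene, averaged 799.9 ± 53.8 CPM in controls and 1340.2 ± 38.8 CPM in knockouts (SD, n = 4 each), with a log2 fold change of 0.74 (SE 0.05, edgeR FDR = 6.49e-27). Pgam2, a glycolytic enzyme gene of muscle, had a log2 fold change of 0.59 (SE 0.23, edgeR FDR = 0.206) and Epb41l4aos one of 0.60 (SE 0.29, edgeR FDR = 0.350). The likeness includes the genotype difference itself and is a description.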
